A study of Mus musculus with 6 samples.

Results

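The lysosomal set described here held 43 genes, listed by name, that encode lysosomal hydrolases and their activators, cathepsins and other proteases, lysosomal membrane proteins, the TFEB family of transcriptional regulators, and progranulin. All 43 were found by symbol among the 53465 genes of the deposited table, and 42 had enough counts to be tested. The list was drawn up with earlier results of these data known, among them the absence of Hexa from axitinib-resistant cells, so counts over the list are given as descriptions. The samples were 2 lines of the 4T1 mouse mammary carcinoma, with 3 RNA libraries per line. Parental (P) cells carry the 4T1 label alone. Axitinib-resistant (AxR) cells, labelled 4T1 AxR, were grown out of a metastasis that arose after surgery in mice given 100 mg/kg/day of axitinib, which blocks VEGF receptor kinases, and were then kept in culture with 0.5 μM axitinib for over 2 months. The treatment label names axitinib for AxR samples only, while the growth protocol gives 0.5 μM axitinib for all 6 samples. The methods name SCID or Balb/c mice and a lesion of lung or lymph node, without saying which gave this line. The AxR cells are a single line that differs from P cells in drug exposure, passage through the animal and culture history, which cannot be told apart here, and neither the labels nor the methods say whether the 3 libraries of a line came from separate cultures. P-values therefore measure the spread between these libraries only.

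Lysosomes are acidic organelles in which hydrolases break down lipids, glycans, proteins and nucleic acids delivered by endocytosis and autophagy. Most of the soluble enzymes are tagged with mannose 6-phosphate in the Golgi and sorted by receptors, and a proton pump keeps the lumen acidic. TFEB, TFE3 and MITF are related basic helix-loop-helix factors that bind E-box sequences near many lysosomal genes, and mTORC1 on the lysosomal surface keeps TFEB and TFE3 in the cytosol when nutrients are plentiful. Starved cells are known to raise many lysosomal transcripts together.

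Libraries held between 15495260 and 17294525 estimated counts. Levels are given as CPM (counts scaled to the normalized library size) and, where genes are compared with each other, as RPKM (CPM per kilobase of exon). The mammary epithelial transcripts Cdh1, Krt8, Krt18, Krt7 and Epcam were abundant in both lines, and their list of 8 summed to between 1887 and 2107 CPM in P and between 3004 and 3184 CPM in AxR libraries. Of the 7 tested, Krt19 was lower in AxR cells (8.88 ± 0.798 CPM in P and 3.56 ± 0.170 CPM in AxR cells, SD, n = 3 each), the other 6 were higher, and Krt5 had 0 counts. The fibroblast, endothelial and lung epithelial lists each summed to at most 1.02 CPM in any library. Of the 12 leukocyte and macrophage markers, 7 never exceeded 3 counts in a library, and Tyrobp, Fcer1g, Adgre1, C1qa and C1qb had 0. The list nevertheless summed to between 12.1 and 14.02 CPM in P and between 42.2 and 51.8 CPM in AxR libraries, nearly all of it Cd74, Cd14 and Cd68, each of which was higher in AxR cells. The part of these transcripts in the lysosomal result was not tested. In bulk RNA, a change in the share of cells that express a gene and a change in the RNA per cell cannot be told apart.

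Most of the lysosomal set was higher in AxR cells. Of the 42 genes tested, 29 were higher and 4 were lower, and 9 did not pass. A call meant an adjusted p below 0.05 in the quasi-likelihood test of edgeR, with p-values adjusted across the full table by the Benjamini-Hochberg method, and 63.5% of all genes had one. The higher genes were 69.0% of those tested, where 32.8% of all 13550 genes tested were higher, and the lower genes were 9.52%, where 30.8% of all genes were lower. The median log2 fold change of the set was 0.51, with Hexa at its fitted value or at the limit its 0 counts allow, against 0.01 over all genes tested. Manba, Lamp2, Gla, Ctsd, Gm2a, Neu1, Grn and Psap rose by at least 1 on the log2 scale. These 8 are 19.0% of the genes tested, where 7.99% of all genes rose that far. Hexa alone was lower by at least 1, where 4.72% of all genes were. Hexa, Ctsh, Scarb2 and Ctsz were the 4 lower genes. Without Hexa, whose loss was known when the list was drawn up, 29 of 41 (70.7%) were higher and 3 (7.32%) lower. None of those 3 was lower by at least 1.

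Every AxR library lay above every P library for 29 of the genes and below for 4, which together is 33 of 42, where 68.3% of all genes tested were separated in either direction, 35.1% upward and 33.2% downward. For a separated gene the two-sided exact permutation test gives p = 0.1, its lower limit with 3 libraries a line. The genes higher by the test and the genes separated upward were not quite identical, since Gusb passed with overlapping libraries and Idua was separated without passing. Replicates were close. The coefficient of variation of a tested member had a median of 5.02% among P libraries and 4.95% among AxR libraries, leaving out Hexa in AxR. Added up, the 43 genes took 3994, 4108 and 4140 CPM in P replicates 1 to 3 and 5689, 5800 and 5537 CPM in AxR replicates 1 to 3. The sum was higher in each AxR library than in any P library.

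The genes lie on 18 chromosomes, whose median log2 fold changes ran from -0.27 on chromosome 13 to 0.50 on chromosome 18. After the median log2 fold change of its chromosome was subtracted, 37 of the 42 genes were above 0, and the median of the set was 0.41. Glb1, Asah1 and Ctsl, which did not pass, turned from below to above 0 by this step, and Tfeb from above to below. The 5 genes below their chromosome's median were Hexa, Ctsh, Scarb2, Ctsz and Tfeb.

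**Figure D1:**
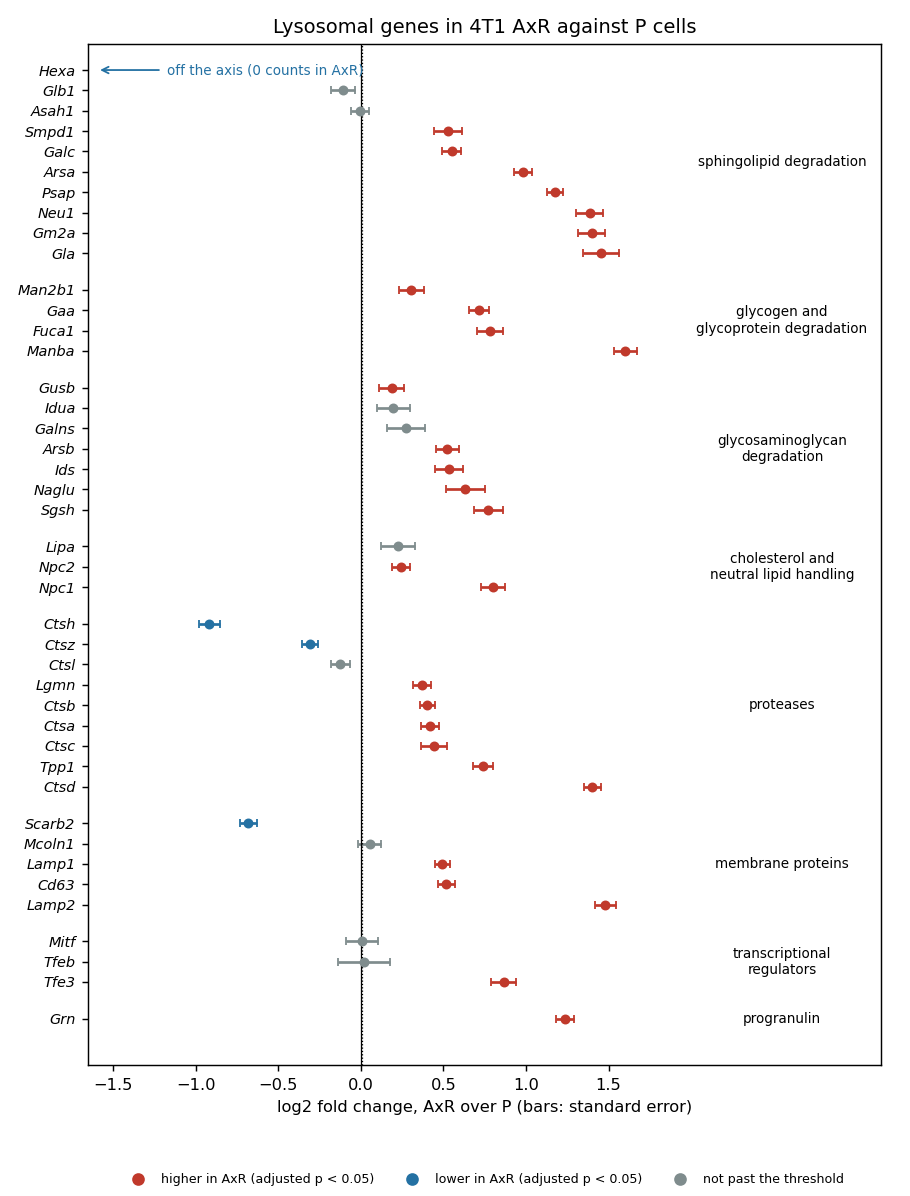
Log2 fold change of each tested lysosomal gene, AxR over P, grouped by role, with the standard error as a bar. Red marks higher, blue lower and grey genes that did not pass an adjusted p of 0.05, the dotted line is the median of all genes tested (0.01), and Hexa, with 0 counts in AxR libraries, is off the axis. Manba, at 1.602, is the highest, and 29 of the 42 genes are red.

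Hexa was expressed in P cells and undetected in AxR cells. It encodes the alpha subunit of beta-hexosaminidase A, which removes N-acetylgalactosamine from GM2 ganglioside, and its loss in people causes Tay-Sachs disease. Hexa (ENSMUSG00000025232.8) occupies bases 59539540 to 59565109 of chromosome 9 (GRCm38, plus strand). It had 18.2, 16.6 and 19.5 CPM in P replicates 1 to 3, from 299, 288 and 299 estimated counts, and 0 counts in each of the 3 AxR libraries. A count of 0 allows up to 3 counts, which is 0.191 CPM in the AxR library with the highest limit. Hexa was therefore at least 94.6-fold lower in AxR cells. The limit of 3 counts covers counting error only. No p-value is given for Hexa, because its loss was known when the list was drawn up. The 250 bases upstream of the Hexa start are shown because this is the 1 promoter of the set whose gene went from expressed to undetected. They span chr9:59539290-59539539 of GRCm38.p6 (plus strand, from RefSeq), inside the gene span of Tmem202 on the opposite strand but in no annotated exon, with 51.6% GC, and hold no CACGTG core that would be printed in capitals.
Hexa promoter: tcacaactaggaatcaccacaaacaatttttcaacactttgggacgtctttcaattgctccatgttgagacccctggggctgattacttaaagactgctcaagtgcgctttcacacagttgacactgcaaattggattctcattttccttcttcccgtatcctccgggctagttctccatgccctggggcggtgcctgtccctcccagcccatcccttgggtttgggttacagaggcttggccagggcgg

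Most tested genes around Hexa were lower, and none was lost. Of the 10 tested genes on each side, from Stoml1 to Tle3, 13 were lower, 4 higher and 3 did not pass. Of all genes tested, 30.8% were lower and 32.8% higher. The median log2 fold change of the 20 neighbours was -0.38, against -0.23 over the 757 tested genes of chromosome 9. The next tested gene on the side of Hexa's 3' end, Parp6, which starts 52175 bases beyond it and encodes a mono-ADP-ribosyltransferase, had 42.9 ± 1.54 CPM in P and 21.3 ± 2.18 CPM in AxR cells (SD, n = 3 each). Its log2 fold change was -1.01 (standard error, SE, 0.0799, edgeR adjusted p = 3.98e-08). Each of the 20 neighbours had counts in AxR libraries. Tmem202, which shares exon bases with Hexa on the opposite strand, had a mean of 0.059 CPM in P cells and 0 in AxR cells and was not tested.

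**Figure D2:**
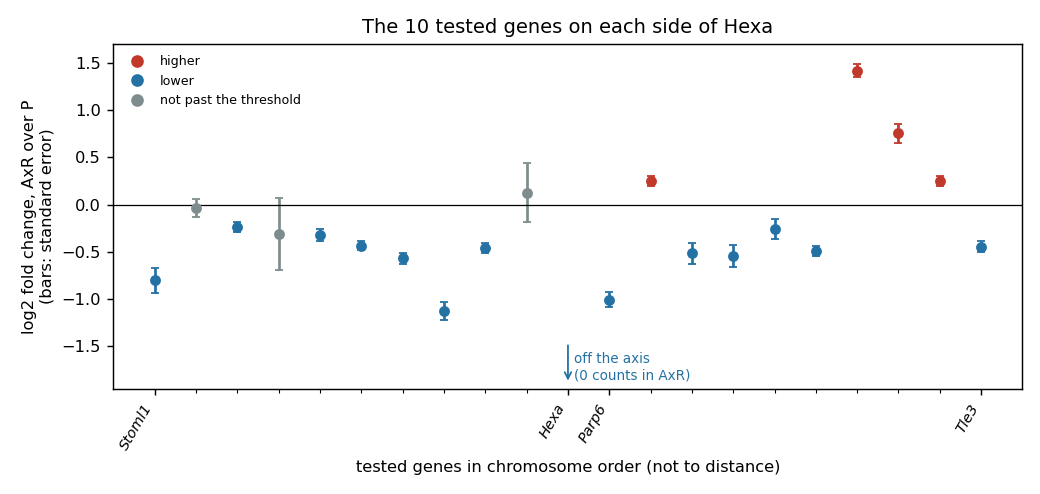
Log2 fold change, AxR over P, of the 10 tested genes on each side of Hexa in chromosome order, with standard errors and the names of the outermost genes and Parp6. Of these 20 genes, 13 are lower (blue), 4 higher (red) and 3 grey, between -1.13 and 1.42, while Hexa has 0 counts in AxR libraries and is off the axis.

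Gm2a encodes the activator protein that presents GM2 ganglioside to hexosaminidase A. Its level was 23.4, 24.0 and 29.1 CPM in the P libraries and 70.4, 68.6 and 62.4 CPM in the AxR libraries, which did not overlap. The rise was 2.63-fold (log2 fold change 1.40, SE 0.0835, edgeR adjusted p = 1.89e-09).

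Of the 10 genes for sphingolipid breakdown, 7 (70%) were higher, 1 (Hexa, 10%) was lower and 2 did not pass. Of all genes tested, 32.8% were higher and 30.8% lower. Gla, the alpha-galactosidase whose lack causes Fabry disease, had 6.50, 7.85 and 7.11 CPM in P and 21.6, 19.6 and 17.7 CPM in AxR libraries. This is a 2.74-fold rise (log2 fold change 1.45, SE 0.109). Gla lies on the X chromosome, where the median log2 fold change was 0.24. Neu1, the lysosomal sialidase, had 10.4, 12.0 and 10.8 CPM in P libraries and 29.3, 28.0 and 29.6 CPM in AxR libraries, a 2.61-fold rise. Psap encodes prosaposin, the precursor of the saposins, which help hydrolases reach their lipid substrates. It had 262, 283 and 258 CPM in P replicates 1 to 3 and 584, 623 and 607 CPM in AxR replicates 1 to 3, a log2 fold change of 1.18 (SE 0.0505, edgeR adjusted p = 4.66e-11). All 3 genes were separated between the lines with a gap far wider than the spread of either. Arsa, arylsulfatase A, which desulfates sulfatide, rose by 0.98 on the log2 scale, with 53.7 ± 0.423 CPM in P and 106 ± 5.45 CPM in AxR cells (SD, n = 3 each). Galc, which cleaves galactosylceramide, and Smpd1, acid sphingomyelinase, rose by less, with log2 fold changes of 0.55 and 0.53.

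Glb1 and Asah1 did not pass. Glb1, lysosomal beta-galactosidase, had 48.7, 41.5 and 45.9 CPM in P and 43.6, 39.7 and 42.8 CPM in AxR libraries (log2 fold change -0.11, SE 0.0721), and it shares exon bases with Tmppe on the same strand. Asah1, acid ceramidase, had 193, 185 and 205 CPM in P and 197, 201 and 183 CPM in AxR libraries, a log2 fold change of -0.0054 (SE 0.0547). Libraries of both lines overlapped for each gene. Glb1, Neu1 and the protective protein Ctsa form a complex in the lysosome, and their log2 fold changes were -0.11, 1.39 and 0.42.

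Each of the 4 genes for glycogen and glycoprotein breakdown was higher, where 32.8% of all genes tested were. Manba, beta-mannosidase, had the highest log2 fold change of the set. It had 15.1, 15.1 and 15.3 CPM in P and 45.9, 47.0 and 45.0 CPM in AxR libraries, a 3.04-fold rise (log2 fold change 1.602, SE 0.0695, edgeR adjusted p = 5.04e-11). The 3 libraries of each line lay close together. Manba is on chromosome 3, where the median log2 fold change was 0.32, and stood 1.28 above that median. Fuca1, alpha-fucosidase, and Gaa, the acid alpha-glucosidase that digests glycogen and is missing in Pompe disease, had log2 fold changes of 0.78 and 0.72. Gaa had 58.7, 55.8 and 52.0 CPM in P and 87.3, 92.3 and 94.1 CPM in AxR libraries. Man2b1, alpha-mannosidase, rose least of the 4, by 0.31 (edgeR adjusted p = 0.00296).

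Genes for the breakdown of glycosaminoglycans, the sulfated chains of proteoglycans, were mostly higher. Of 7 genes, 5 (71.4%) were higher and 2 did not pass, where 32.8% of all genes tested were higher. Sgsh and Naglu, which act on heparan sulfate, had log2 fold changes of 0.77 and 0.63. Sgsh had 17.4, 19.7 and 15.3 CPM in P and 29.9, 30.2 and 29.8 CPM in AxR libraries. Ids, the iduronate sulfatase on the X chromosome, and Arsb, which desulfates dermatan and chondroitin sulfate, had log2 fold changes of 0.54 and 0.52. Gusb, beta-glucuronidase, passed with the smallest margin of the whole set. It had 63.7, 74.2 and 70.4 CPM in P and 86.4, 79.2 and 71.7 CPM in AxR libraries, which overlapped (log2 fold change 0.19, edgeR adjusted p = 0.0388). Under alternatives its adjusted p lay between 0.00345 and 0.169, and without P replicate 1 or 3 or AxR replicate 1 or 2 it did not pass, at 0.169, 0.0710, 0.157 and 0.0854.

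Galns and Idua did not pass. Galns had 13.8, 12.8 and 12.9 CPM in P and 13.1, 18.8 and 15.9 CPM in AxR libraries, where AxR replicate 1 lay among the P libraries and the other two above them (log2 fold change 0.27, edgeR adjusted p = 0.0503). With AxR replicate 1 left out, Galns stood at 0.40 on the log2 scale and the adjusted p 0.00387 from edgeR, and over all alternatives the adjusted p lay between 0.00387 and 0.291. Idua had 10.03, 9.47 and 9.65 CPM in P and 11.2, 11.4 and 10.9 CPM in AxR libraries, with no overlap but a log2 fold change of only 0.20 (edgeR adjusted p = 0.0925). Idua shares exon bases with 2 genes on the opposite strand. Dgkq had means of 15.9 CPM in P and 13.9 CPM in AxR cells (log2 fold change -0.19), a higher level than Idua itself. Slc26a1 had 0.518 and 0.857 CPM (log2 fold change 0.69). The part of shared reads in the value of Idua was not tested.

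Of the 3 genes that handle cholesterol and neutral lipids, Npc1 and Npc2 were higher, where 32.8% of all genes tested were. Npc1, the membrane protein that exports cholesterol from the lysosome, had 26.6, 28.3 and 29.1 CPM in P and 45.3, 48.5 and 52.2 CPM in AxR libraries. Its log2 fold change was 0.80, where the 318 tested genes of its chromosome, 18, had a median of 0.50. Its opposite-strand neighbour Rmc1, with which it shares exon bases, had a log2 fold change of 0.75. Npc2, the soluble partner that hands cholesterol to Npc1, had 194, 193 and 201 CPM in P and 227, 251 and 218 CPM in AxR libraries, and rose by 0.24. Lipa, lysosomal acid lipase, had 12.3, 11.8 and 13.2 CPM in P and 14.99, 12.6 and 15.8 CPM in AxR libraries, which overlapped, and did not pass (log2 fold change 0.22, edgeR adjusted p = 0.0701). Over the alternatives the adjusted p of Lipa lay between 0.0196 and 0.229, the lowest without AxR replicate 2.

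**Figure D3:**
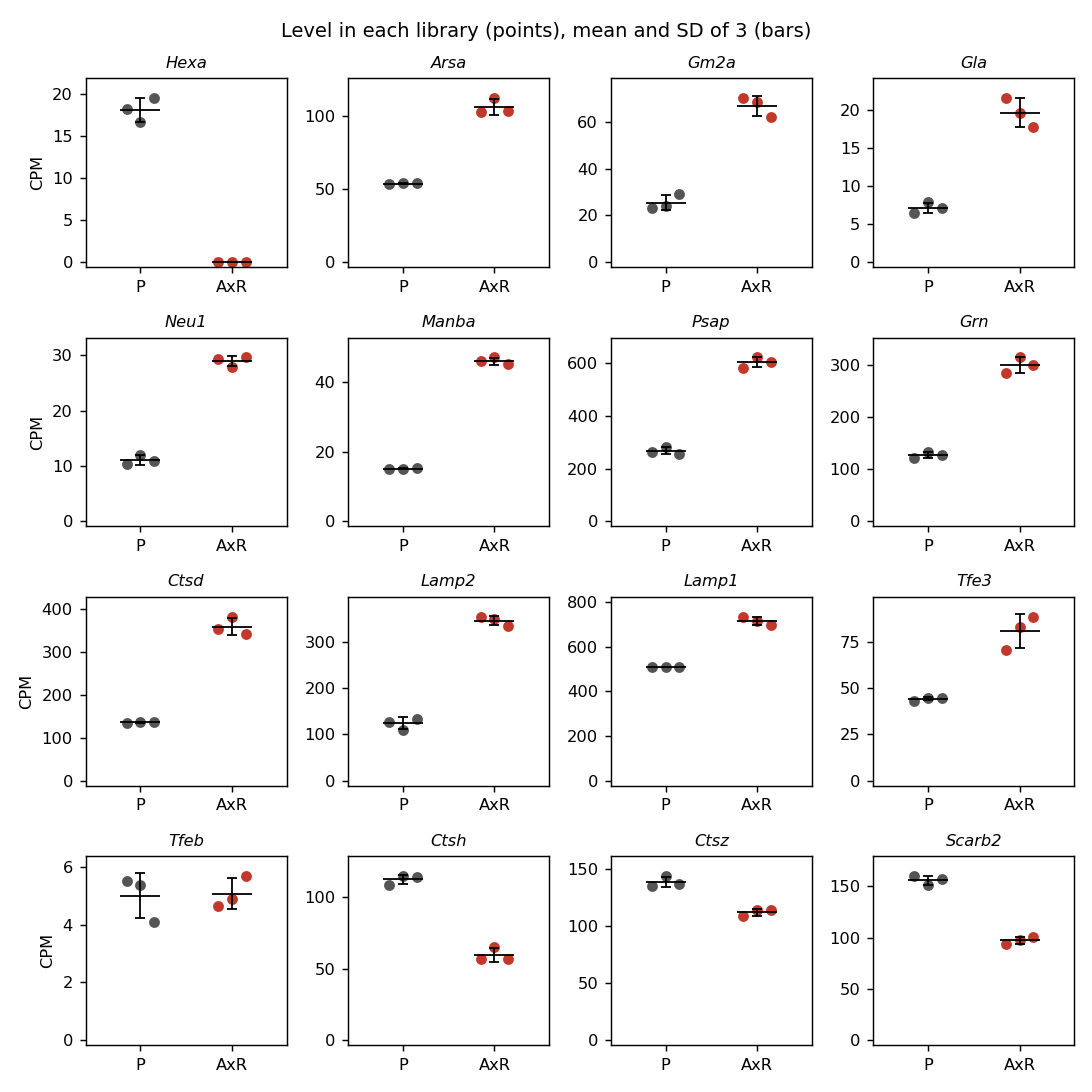
CPM in each of the 3 P and 3 AxR libraries (points) with the mean and SD (bars) for 16 members, each panel on its own axis starting at 0. Hexa falls to 0 in each AxR library, Ctsh, Ctsz and Scarb2 are lower without overlap, Tfeb overlaps, and the other 11 genes are higher without overlap.

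Of the 10 protease genes, 9 were tested, and 6 (66.7%) were higher and 2 (22.2%) lower. The shares over all genes tested were 32.8% higher and 30.8% lower. Ctsd, cathepsin D, the main aspartic protease of the lysosome, had 134, 137 and 137 CPM in P replicates 1 to 3 and 355, 382 and 341 CPM in AxR replicates 1 to 3. The rise was 2.64-fold (log2 fold change 1.40, SE 0.0519, edgeR adjusted p = 8.84e-12). Tpp1, the tripeptidyl peptidase lacking in a form of neuronal ceroid lipofuscinosis, rose by 0.74 on the log2 scale. Ctsc, Ctsa, Ctsb and Lgmn rose by between 0.37 and 0.44. Ctsc is a dipeptidyl peptidase that activates granule serine proteases, Ctsb a cysteine protease, and Lgmn an asparaginyl endopeptidase that processes other cathepsins. Ctsb had 226, 229.9 and 229 CPM in P and 301, 307 and 297 CPM in AxR libraries, and shares exon bases with Fdft1 on the opposite strand, which had a log2 fold change of 1.46.

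Ctsh and Ctsz were lower. Ctsh, cathepsin H, an aminopeptidase, had 109, 115 and 114 CPM in P and 57.0, 65.5 and 56.4 CPM in AxR libraries, and the highest AxR library was well under the lowest P library (log2 fold change -0.92, SE 0.0629, edgeR adjusted p = 7.82e-09). Like Hexa, it lies on chromosome 9, and stood 0.69 below that chromosome's median. Ctsz, cathepsin Z, a carboxypeptidase, had 136, 144 and 137 CPM in P and 109, 114 and 114 CPM in AxR libraries, a log2 fold change of -0.31. Ctsl, cathepsin L, had 723, 789.7 and 802 CPM in P and 737, 735 and 651 CPM in AxR libraries. It did not pass (log2 fold change -0.13, edgeR adjusted p = 0.0707), but its adjusted p lay between 0.0196 and 0.267 over the alternatives and was under 0.05, in the lower direction, with TMM, library size only, DESeq2, no low-count filter and without P replicate 1 or AxR replicate 1. Ctsl stood 0.15 above the median of its chromosome. Ctss, cathepsin S, which is mainly made by antigen-presenting cells, had 0 counts in each P library and 2, 4 and 1 counts in AxR replicates 1 to 3, too few to be tested. Without the low-count filter Ctss was called higher, but on at most 4 counts, near the 3 that a count of 0 allows, so that call carries little weight.

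Of the 5 membrane proteins, 3 (60%) were higher and 1 (20%) lower, where 32.8% of all genes tested were higher and 30.8% lower. Lamp2 and Lamp1 are the heavily glycosylated proteins that line the lysosomal membrane, and Lamp2 also serves in chaperone-mediated autophagy. Lamp2, on the X chromosome, had 128, 109.9 and 134 CPM in P and 354, 349 and 335 CPM in AxR libraries (log2 fold change 1.48, SE 0.0654, edgeR adjusted p = 1.08e-10). Lamp1 had 509, 507 and 509 CPM in P and 734, 717 and 696 CPM in AxR libraries, a smaller log2 fold change of 0.49. Both were separated, and Lamp1 hardly varied among P libraries. Cd63, a tetraspanin of late endosomes and exosomes, had a log2 fold change of 0.52.

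Scarb2, also called LIMP-2, was the lower one. It is a membrane glycoprotein that also serves as a sorting receptor. Scarb2 had 160.1, 151 and 157 CPM in P and 94.1, 97.3 and 101 CPM in AxR libraries, a log2 fold change of -0.68 (SE 0.0514, edgeR adjusted p = 2.32e-08). Its libraries did not overlap. Mcoln1, the calcium channel of the lysosomal membrane, had 31.1, 33.1 and 30.0 CPM in P and 31.6, 33.2 and 33.0 CPM in AxR libraries and did not pass (log2 fold change 0.054, edgeR adjusted p = 0.516).

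Of the transcriptional regulators, Tfe3 was higher, and Tfeb and Mitf did not pass. Tfe3, on the X chromosome, had 43.2, 44.9 and 44.7 CPM in P and 70.4, 83.0 and 88.5 CPM in AxR libraries, where AxR replicate 1 was the lowest and still far above the P libraries. Its log2 fold change was 0.87 (SE 0.0759, edgeR adjusted p = 1.62e-07), and stood 0.63 above the median of its chromosome. Tfeb was the lowest tested transcript of the set per length in P cells, with 5.53, 5.37 and 4.11 CPM in P and 4.64, 4.91 and 5.69 CPM in AxR libraries (log2 fold change 0.021, SE 0.156). Mitf had 14.3, 12.6 and 12.9 CPM in P and 12.1, 14.2 and 13.7 CPM in AxR libraries, a log2 fold change of 0.0087 (SE 0.0985). For both, libraries of the lines overlapped. These are transcript levels, and the activity of the family is known to depend on phosphorylation and nuclear entry, which were not measured here. Grn encodes progranulin, a secreted and lysosomal protein that is cut into granulins and travels with prosaposin. It had 121, 133 and 128 CPM in P replicates 1 to 3 and 285, 314 and 299 CPM in AxR replicates 1 to 3, a log2 fold change of 1.23 (SE 0.0542, edgeR adjusted p = 5.78e-11).

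Promoters were searched for the E-box sequences that TFEB, TFE3 and MITF are known to bind. RefSeq windows from 250 bases before to 50 bases after a gene's start (GRCm38.p6) were found for 38 of the 43 genes, 46 windows in all. Asah1, Ctsb, Ctsh, Galns and Npc1 were not matched. Each motif reads the same on both strands, and the shorter ones lie within the longer. The core CACGTG was in 12 of the 46 windows, or 26.1%, 1 for each of 12 genes, against 7.15% of all 32851 windows. TCACGTGA was in 4 of them, or 8.70%, against 0.974% of all windows. The 10-letter palindrome known as the CLEAR element, which adds 1 base on each side of it, was in none of the 46, against 0.326% of all windows. The sites of the 8-letter motif are shown, each with the bases around it and the motif in capitals, because they let the 4 genes that hold it be set beside their values.
Gla site 1: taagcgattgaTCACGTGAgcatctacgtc
Gla site 2: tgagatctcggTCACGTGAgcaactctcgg
Ctsd site: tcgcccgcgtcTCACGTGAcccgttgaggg
Ctsa site 1: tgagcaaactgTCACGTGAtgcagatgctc
Ctsa site 2: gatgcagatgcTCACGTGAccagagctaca
Mcoln1 site: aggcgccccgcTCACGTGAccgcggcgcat
The Gla sites lie at chrX:134601215-134601244 and chrX:134601182-134601211, and the Ctsd site at chr7:142387908-142387937, on the minus strand. The Ctsa sites lie at chr2:164833749-164833778 and chr2:164833766-164833795 and the Mcoln1 site at chr8:3500462-3500491, on the plus strand. Relative to the RefSeq start, the motif began 228 and 195 bases upstream in Gla, 99 upstream in Ctsd, 46 upstream in Mcoln1, and 13 upstream and 4 downstream in Ctsa.

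These 4 genes did not share a response. Gla and Ctsd were among the 8 genes that rose most, at 1.45 and 1.40, Ctsa rose by 0.42, and Mcoln1, at 0.054, did not pass. Among the 37 tested genes with a window, the 12 with a CACGTG core had a median log2 fold change of 0.56, with 9 higher and 3 not past the threshold. The 25 without it had a median of 0.52, with 18 higher, 3 lower and 4 not past the threshold. Hexa, Scarb2 and Ctsz, lower in AxR cells, and Gm2a, Manba, Lamp2, Neu1, Psap and Grn, higher by at least 1, had no core in their windows. A match describes the letters only, and no binding was measured.

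The order of the genes by level was broadly kept between the lines, but single genes moved. Per length, Lamp1 was the most abundant of the set in both, at 190.1 ± 0.422 RPKM in P and 268 ± 7.17 RPKM in AxR cells (SD, n = 3 each, as for the values that follow). In P cells it was followed by Ctsl at 119 ± 6.58, Psap at 97.5 ± 4.89 and Ctsz at 96.4 ± 3.05 RPKM, and Psap and Ctsz differed by less than their spread. In AxR cells Psap came next after Lamp1 at 220.3 ± 7.12 RPKM, Ctsd next at 153 ± 8.79 RPKM, up from rank 6 and 57.8 ± 0.593 RPKM in P cells, and then Ctsl at 109 ± 7.59 RPKM. Grn moved from rank 10 to rank 5 and Scarb2 from rank 13 to rank 17. Moves over more ranks were seen for Manba, from 39 to 28, Neu1, from 35 to 25, and Gm2a, from 24 to 16. Ctsh fell from rank 12 to rank 21, and Hexa from rank 21 to rank 43. At the low end were Tfeb at 0.882 ± 0.137 and 0.896 ± 0.0964, and Lipa at 1.83 ± 0.103 and 2.14 ± 0.244 RPKM in P and AxR cells. Across the 43 genes, which are not independent, Spearman's rho between the mean RPKM in P and in AxR cells was 0.91.

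**Figure D4:**
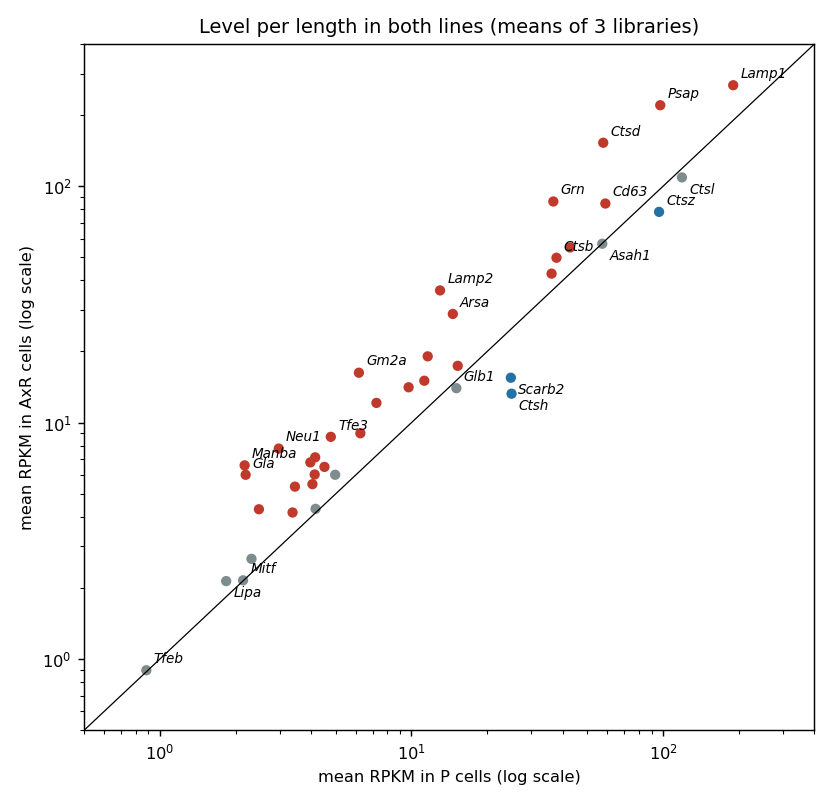
Mean RPKM of 3 libraries in P against AxR cells for 41 of the 43 genes, on log axes with the line of equality. Colours are as in the plot of fold changes by role, Hexa and Ctss are left out because 1 line has a mean of 0, and Psap, Ctsd, Grn and Lamp2 lie well above the line while Ctsh and Scarb2 lie below it.

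The other parts of the lysosomal system were read from 7 further lists of 147 genes, of which 133 were tested. Of these, 75 (56.4%) were higher and 22 (16.5%) lower, where 32.8% of all genes tested were higher and 30.8% lower, with a median log2 fold change of 0.26. Among 30 other hydrolases, 28 were tested, 17 (60.7%) were higher and 4 (14.3%) lower, with a median of 0.44. The highest was Hyal1, a hyaluronidase, from 1.73 ± 0.0528 to 7.53 ± 1.32 CPM (SD, n = 3 each), at 2.12, and Dpp7, a dipeptidyl peptidase, was at 1.24. The lowest were Hyal2, also a hyaluronidase, at -0.72, Hgsnat, which acetylates heparan sulfate ends, at -0.42, and the nuclease Dnase2a at -0.38, whose libraries overlapped.

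Among 26 other membrane proteins, 21 were tested, 9 (42.9%) were higher and 4 (19.0%) lower, with a median of 0.17. Of all genes tested, 32.8% were higher and 30.8% lower, so this list lay nearer to the whole table than the set did. Ctns, the cystine exporter, had 16.7, 14.4 and 13.5 CPM in P and 41.2, 53.5 and 51.9 CPM in AxR libraries, a log2 fold change of 1.72. Tpcn1, a cation channel of endolysosomes, and Cd68 followed at 1.45 and 1.24. Gpnmb, a glycoprotein known as a target of MITF and TFE3, had 9.79, 6.58 and 7.89 CPM in P and 2.92, 3.38 and 2.90 CPM in AxR libraries and was the lowest of the list at -1.40, below Slc38a9 at -0.37 and Tmem175 at -0.35.

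The V-ATPase is the proton pump of the lysosome. Of its 22 genes, 18 were tested, 12 (66.7%) were higher and 1 (5.56%) lower, with a median of 0.26. Over all genes tested, 32.8% were higher and 30.8% lower. The accessory subunit Atp6ap2, on the X chromosome, had 47.0, 38.6 and 46.5 CPM in P and 129.6, 132 and 119.7 CPM in AxR libraries (log2 fold change 1.53), and Atp6v0e2 and Tcirg1 followed at 1.11 and 0.60. Atp6v0a2, at -0.30, was the lower one. Of the 13 genes for enzyme tagging and sorting, 7 (53.8%) were higher and 2 (15.4%) lower, with a median of 0.29. Igf2r, the large mannose 6-phosphate receptor, had 412 ± 6.44 CPM in P and 230.3 ± 8.28 CPM in AxR cells (SD, n = 3 each) and was lower, at -0.84 on the log2 scale (edgeR adjusted p = 7.44e-10), and Cln8, which helps enzymes leave the endoplasmic reticulum, had -0.72. Sort1, sortilin, a receptor for progranulin and prosaposin, was scarce in both lines, at 0.790, 0.635 and 0.717 CPM in P and 2.604, 2.30 and 2.33 CPM in AxR libraries, and rose by 1.75. Gnptg and Cln6 rose by 0.70 and 0.70.

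Of 19 genes for nutrient sensing at the lysosome, 17 were tested, 12 (70.6%) were higher and 1 (5.88%) lower, with a median of 0.37. The shares over all genes tested were 32.8% higher and 30.8% lower. Rragd, a Rag GTPase known as a TFEB and MITF target, was near the detection limit in P cells, at 0.304, 0.289 and 0.196 CPM, and at 2.03, 1.08 and 1.19 CPM in AxR libraries (log2 fold change 2.40, SE 0.409). Lamtor5, of the complex that anchors the Rag proteins, and Tsc2, which restrains mTORC1, had log2 fold changes of 0.98 and 0.60, and Rraga was lower at -0.19. All 33 genes for autophagy and lysosome fusion were tested, and 15 (45.5%) were higher and 10 (30.3%) lower, with a median of 0.13. The lower share is near that of all genes tested. Map1lc3b, Sqstm1 and Vps18 were highest at 0.76, 0.65 and 0.51, and Map1lc3a, Atg3 and Wipi1 lowest at -0.97, -0.91 and -0.66. Of 4 cystatins that inhibit cathepsins, the 3 tested were higher. Cst6 had 1.46, 2.31 and 2.02 CPM in P and 11.7, 12.9 and 12.4 CPM in AxR libraries, a log2 fold change of 2.67, and Cstb and Cst3 had 0.75 and 0.30.

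**Figure D5:**
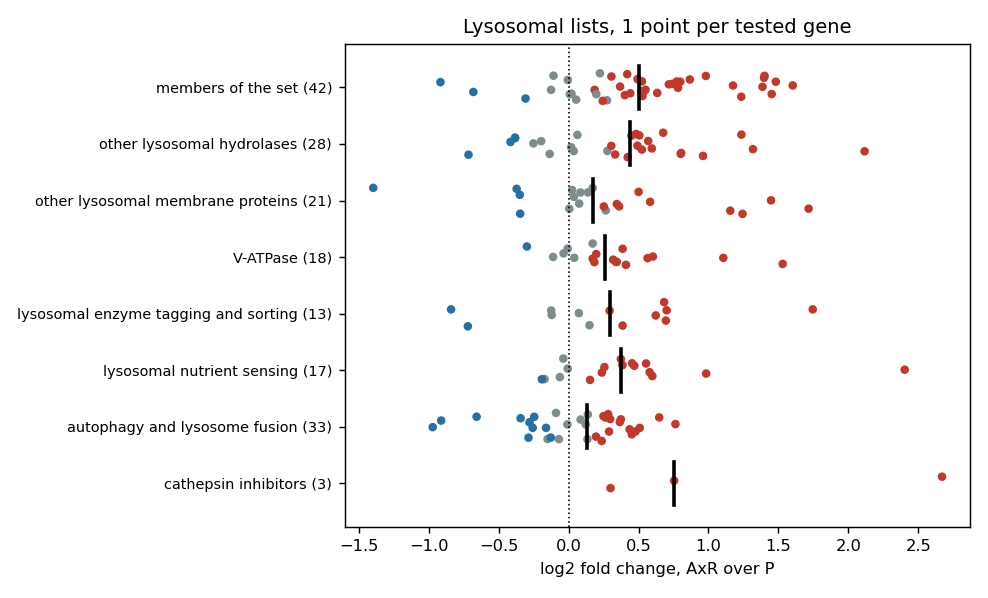
Log2 fold change, AxR over P, with 1 point per tested gene in the lysosomal set and 7 further lists (number tested in brackets). Black bars are list medians, the dotted line is the median of all genes tested, red is higher, blue lower and grey not past the threshold, and the point of Hexa is off the axis. Medians lie between 0.13 for autophagy and 0.75 for the 3 cathepsin inhibitors.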

How the data were processed

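RNA from 3 P and 3 AxR libraries was prepared with a polyA-selecting stranded kit. Per the labels and the study's methods, the authors aligned reads to GRCm38 with STAR 2.6.0a and estimated gene counts with RSEM 1.3.1. The deposited values are these estimated counts, which are not whole where reads were shared between genes; the strand setting of the counting is not given in the sources used here. Of 53465 gene identifiers, 53360 matched GENCODE M21, used for symbols, positions and exon lengths. Estimated counts were rounded and tested in edgeR 4.0.16 (R 4.3.3) with the quasi-likelihood test after its default expression filter and upper-quartile normalization, with line as the only term and Benjamini-Hochberg adjustment over the 13550 genes kept. CPM use the normalized library size. The tests were also run on simulated data. Far fewer genes were changed there than were called here, so those runs do not check this setting. Library totals of 15495260 to 17294525 put the limit of 3 counts at 0.171 to 0.196 CPM, which covers counting error only. Exact permutation tests used log2(CPM + 0.5).

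The members and lists were chosen with earlier results of these data known. Genes named are the 43 members, up to 3 highest and 3 lowest genes past the threshold in each list, neighbours of Hexa and the markers. Dgkq, Fdft1, Rmc1, Slc26a1, Tmem202 and Tmppe were named after their values were seen, for shared exon bases. Some items are not reported here. Such sharing was found on the same strand for 3 members (Glb1, Ctsd, Ctsl) and on the opposite strand for 13. Alternatives were TMM, library size only, DESeq2 1.42.0, limma-voom (limma 3.58.1), 2 other filters, a log2 threshold of 1, a replicate block, chromosome medians subtracted and each library left out.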

Additional observations from a re-analysis of the deposited data

How the results depend on the processing

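With a log2 fold change of at least 1 required as well, 1083 genes of the whole table were higher and 640 lower, and 8 lysosomal genes were higher and 1 lower. Under the other alternatives with a test, between 28 and 31 lysosomal genes were higher and between 3 and 5 lower. The 31 were reached without the low-count filter and include Ctss, with at most 4 counts. Leaving out each library in turn gave 28 to 29 higher and 4 to 5 lower, 4124 to 4499 genes of the whole table higher and 3782 to 4112 lower, and a median of 0.47 to 0.51, lowest without AxR replicate 1. The median was 0.41 with chromosome medians subtracted. Gusb lost its call, and Galns, Lipa and Ctsl gained one, under the settings given with their values in the report or, for Gusb, also with library size only (adjusted p = 0.0505) and DESeq2 (0.0613), and for Galns with no low-count filter (0.021).

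Replicate numbers are shared between P and AxR labels. Deviations of libraries with the same number had correlations of -0.0213, -0.0061 and -0.0217, and those with unlike numbers lay between -0.0011 and 0.0201. No pairing was seen in these values. With 3 libraries a line they cannot show whether libraries of the same number were handled together. With the replicate block, 4304 genes were higher and 4023 lower, 28 lysosomal genes were higher and 4 lower, and their median was 0.51. Gusb was the call lost, at an adjusted p of 0.0525.

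Direction turned for 5 genes, none of which passed in the test given in the report. With chromosome medians subtracted, Glb1 was at 0.12, Ctsl at 0.15, Asah1 at 0.17 and Tfeb at -0.15. Asah1 was at 0.037 without P replicate 3 and 0.035 without AxR replicate 3, in a leave-one-out range from -0.039. Tfeb was at -0.00016 with library size only, -0.095 without P replicate 3 and -0.071 without AxR replicate 3, in a leave-one-out range up to 0.101. Mitf was at -0.0028 with TMM, -0.012 with library size only, -0.0044 with DESeq2, and -0.028, -0.0066, -0.035 and -0.011 without P replicate 2, P replicate 3, AxR replicate 2 and AxR replicate 3, in a leave-one-out range up to 0.078. The cause was not tested. Hexa gave no value where 10 counts were required in every library, and Ctss, with at most 4 counts, is limited by depth.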
